A study of Mus musculus with 16 samples.

Results

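Between the genes of the mouse genome lies DNA that can hold enhancers, promoters of small RNA genes and unannotated transcripts, and 1045 short stretches of it carried more of a ketone-derived histone mark in the cortex of fasted mice. These are the intergenic regions 1 to 50 kb from genes. They were taken from the 8404 regions that the authors deposited as enriched in fasted over ad libitum fed mice. A region was kept if it lay on chromosomes 1 to 19, its centre fell outside all protein-coding and long non-coding RNA (lncRNA) genes of RefSeq and over 1 kb from any end of these, and a protein-coding gene end lay within 50 kb. Regions in runs of 5 or more rows with gaps of at most 20 kb were left out. The 1045 regions were 12.4% of the whole list and 14.2% of the 7351 regions on these chromosomes outside runs.

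The mark is beta-hydroxybutyrylation of histone H3 at lysine 9, profiled by chromatin immunoprecipitation and sequencing (ChIP-seq) in occipital cortex homogenate of C57BL/6J mice at postnatal day 35. Fasted mice went without food for 48 h, and the others were fed ad libitum. The labels describe 4 immunoprecipitated and 4 input libraries of fasted mice, and 4 immunoprecipitated and 4 input libraries of ad libitum fed mice. Each listed region has 1 value, the authors' own log likelihood ratio (log-LR), used here only to describe and rank regions. Values of single libraries and their depth are not given, so no region could be set against the spread between mice. No test is therefore given, and the intervals below cover counting error only. Intervals of densities count each region as separate, although 15.9% of the 1045 regions had another listed region within 1 kb. They can therefore be too narrow. The homogenate holds neurons, glia and vessels together, so the cells that carry a region cannot be told apart.

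Beta-hydroxybutyrate is a ketone body that the liver releases during fasting and the brain burns in place of glucose. Its acyl group can be attached to histone lysines, and the modification at H3 lysine 9 is known from fasted mouse liver, where it marks active genes. Distal regulatory DNA such as an enhancer can act on a gene many kilobases away, and not always on the nearest one, so the gene named beside a region below is a landmark and not a target.

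Some regions lay on or beside microRNA genes, and the mature sequences of Mir760, Mir212 and Mir132 are shown for that reason. Capitals mark the seed, bases 2 to 8, which pairs with target messenger RNAs. The sequences are RefSeq's, build GRCm38.p6, 5′ to 3′, from genes at chr3:122293585-122293703 (minus), chr11:75173388-75173478 (plus) and chr11:75173682-75173747 (plus).
mmu-miR-132-3p: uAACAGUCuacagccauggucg
mmu-miR-212-3p: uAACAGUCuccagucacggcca
mmu-miR-132-5p: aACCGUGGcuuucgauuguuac
mmu-miR-212-5p: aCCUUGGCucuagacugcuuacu
mmu-miR-760-3p: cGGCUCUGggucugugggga
mmu-miR-760-5p: cCCCUCAGgccaccagagcccgg
The 3p arms of miR-132 and miR-212 share the seed AACAGUC. No seed is shared among the other arms shown.

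Of 100 microRNA genes whose centre lay in eligible intergenic DNA, 4 had a region within 1 kb, at 3 loci since Mir212 and Mir132 share theirs. Of the eligible DNA itself, 0.457% lay within 1 kb of a region. Mir124a-3, a gene for the neuronal microRNA miR-124, had 3 regions beside it. They lay at chromosome 2, 180893155 to 180893375 (log-LR 5.40), 180893570 to 180893735 (log-LR 3.94) and 180894117 to 180894271 (log-LR 4.01). The last began 10 bp after the annotated end of the gene, and the nearest protein-coding gene, Ythdf1, which encodes a reader of methylated adenosine in RNA, was 10183 bp from its centre. Mir760 had 1 region, 258 bp from the gene, at chromosome 3, 122293042 to 122293327, with a log-LR of 7.79. The cluster of Mir212 and Mir132, microRNAs that neurons induce with activity, was covered by a region of 531 bp with a log-LR of 5.58, and another of 206 bp (log-LR 6.43) ended 423 bp before Mir212. The 185 transfer RNA genes in the same DNA had 1 with a region within 1 kb, and the 265 small nuclear, 198 small nucleolar and 42 ribosomal RNA genes had none (0).

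**Figure D1:**
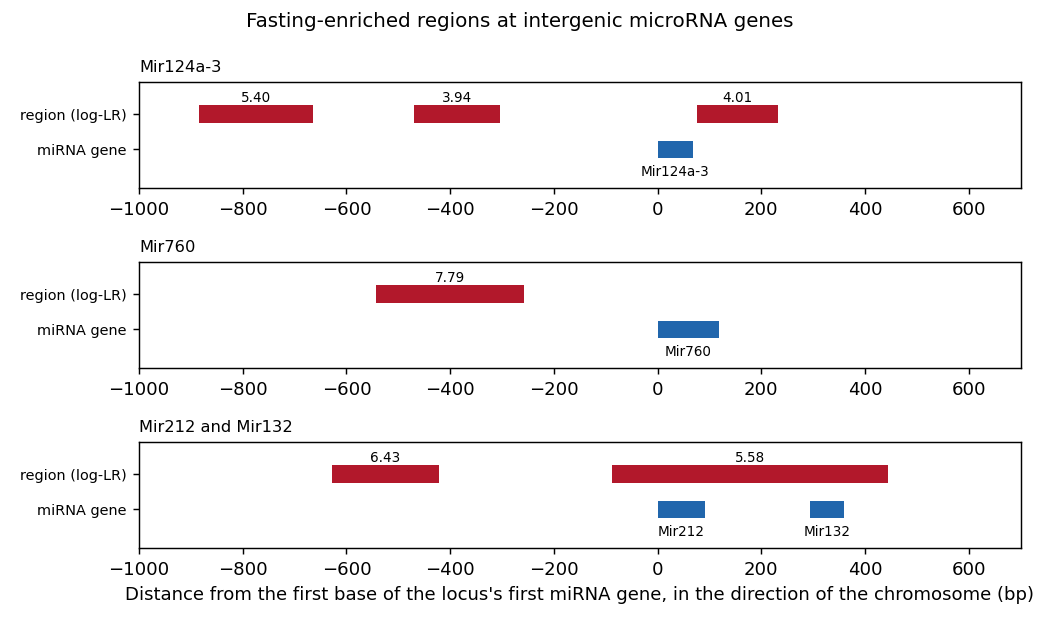
Fasting-enriched intergenic regions (red, with their log-LR) and microRNA genes (blue) at 3 loci, against distance in bp from the first base of the locus's first microRNA gene. The Mir212 and Mir132 genes lie under 1 region of 531 bp, while those at Mir124a-3 and Mir760 lie beside the genes.

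Regions occurred in this DNA at about the density of gene interiors and gene deserts. The 1045 regions lay in 473.0 Mb of eligible DNA, or 2.21 per Mb (95% Poisson interval 2.08 to 2.35). Intergenic DNA over 50 kb from a protein-coding gene held 2.16 per Mb (2.06 to 2.27), a figure that counts assembly gaps as DNA. The inside of protein-coding genes held 2.09 per Mb (2.0 to 2.19) and lncRNA genes 1.69 per Mb (1.5 to 1.89). By contrast, the DNA within 1 kb of a protein-coding gene end held 31.1 per Mb (29.8 to 32.4). The interval of the intergenic regions thus overlapped those of gene interiors and gene deserts, lay above that of lncRNA genes and lay far below that of gene ends.

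Within the intergenic DNA at 1 to 50 kb the density was lowest next to genes. It was 1.24 regions per Mb at 1 to 2 kb from the nearest protein-coding gene end (33 regions, 95% Poisson interval 0.853 to 1.74), 1.65 at 2 to 5 kb (111 regions, 1.36 to 1.99), 2.11 at 5 to 10 kb (178 regions, 1.81 to 2.44), 2.56 at 10 to 20 kb (292 regions, 2.28 to 2.87) and 2.38 at 20 to 50 kb (431 regions, 2.16 to 2.62). The class nearest to genes and the 2 farthest therefore had intervals that did not overlap. Beyond the limits of the rule, the 0 to 0.5 kb class outside genes held 7.20 per Mb (5.93 to 8.66), and the 50 to 100 kb class 2.37 (2.14 to 2.63). A further count left out receptor families (Vmn, Olfr and Tas2r symbols), the Mup, Psg and Obox families and unnamed genes (Gm, LOC and Rik symbols). This choice was made after the data were seen. The density was then 1.15 at 1 to 2 kb (0.742 to 1.69). It was 1.96 at 10 to 20 kb (1.69 to 2.27) and 2.18 at 20 to 50 kb (1.95 to 2.42). In that setting the 10 to 20 kb interval overlapped that at 1 to 2 kb by a narrow margin, and the 20 to 50 kb interval did not.

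Strand was known for the nearest gene of 851 regions (81.4%), which separates the start side of a gene, upstream of its annotated 5′ boundary, from the end side. On the start side lay 436 regions, at 2.20 per Mb (95% Poisson interval 2.0 to 2.42), and on the end side 415, at 2.39 per Mb (2.16 to 2.63). At 1 to 2 kb the start side held 0.954 per Mb (0.458 to 1.75) and the end side 1.12 (0.577 to 1.95). The intervals of the sides were apart in the 0 to 0.5 kb class, inside the 1 kb limit, which held 14.2 per Mb (11.3 to 17.6) before gene starts and 0.919 per Mb (0.337 to 2.0) after gene ends. In the 0.5 to 1 kb class the start side held 3.05 (1.77 to 4.88) and the end side 1.004 (0.368 to 2.18). At 2 to 5 kb, within the rule, the start side held 2.01 (1.51 to 2.62) and the end side 1.45 (1.03 to 2.0), with intervals that overlapped in both classes. Between genes transcribed away from each other the density was 2.11 per Mb (1.81 to 2.44), between genes in tandem 2.46 (2.24 to 2.70) and between genes that point at each other 2.40 (2.02 to 2.83), and these intervals overlapped.

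**Figure D2:**
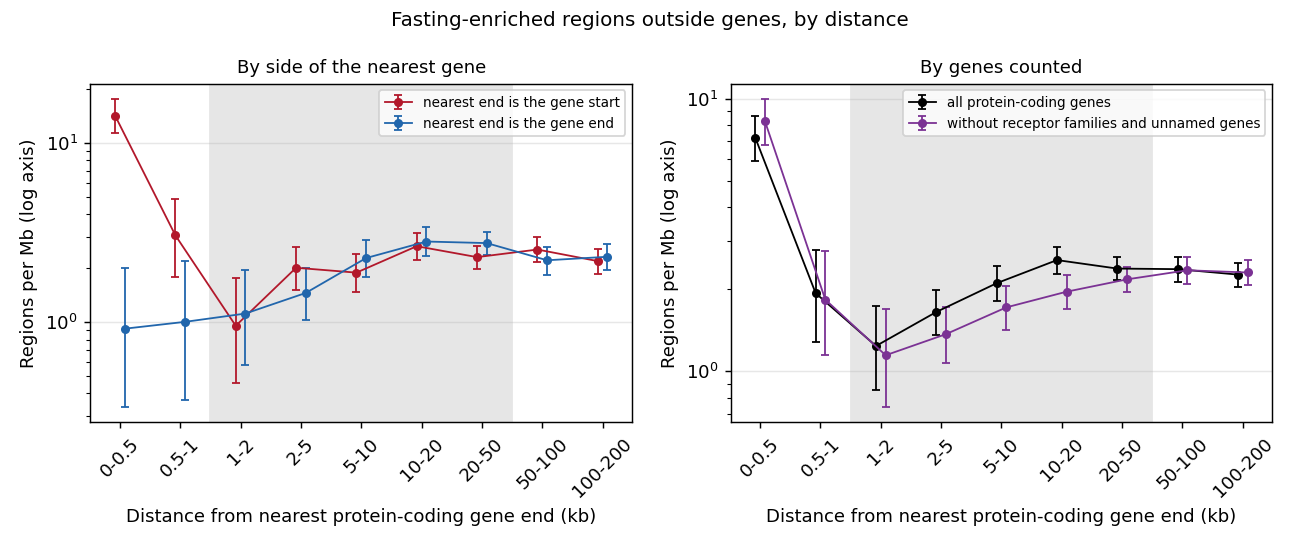
Fasting-enriched regions outside genes per Mb of DNA (log axis) against distance in kb from the nearest protein-coding gene end, by the side of the gene (left) and by the genes counted (right), with 95% Poisson intervals; the shaded classes are the intergenic regions of 1 to 50 kb. The density is 14.2 per Mb before gene starts at 0 to 0.5 kb, lowest in the 1 to 2 kb class of the right panel, and 2.37 at 50 to 100 kb. The families left out in the right panel include Mup, Psg and Obox genes.

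The regions were short and their log-LR was like that elsewhere. The width had a median of 199 bp and quartiles of 153 and 279 bp, against medians of 202.5 bp at gene ends, 195 bp inside genes and 204 bp in gene deserts. The median log-LR was 4.84, with quartiles of 4.10 and 6.18, beside medians of 4.89 at gene ends, 4.95 inside genes, 5.04 at lncRNA genes and 4.72 in gene deserts. A log-LR of 10 or more was reached by 54 regions (5.17%), compared with 1.08% at gene ends, 3.81% inside genes, 7.47% at lncRNA genes and 3.88% in gene deserts. Across the 1045 regions, which come from the same comparison, log-LR was weakly related to width (Spearman's rho 0.185) and not to distance from a gene (rho -0.0314), values given as a description. Most regions stood alone: 709 had no other listed region within 20 kb, 236 belonged to pairs, 74 to groups of 3 and 26 to groups of 4. A listed region lay within 1 kb of 166 of them (15.9%).

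Several of the highest values fell past the last gene of a chromosome. Of the 1045 regions, 7 lay beyond the last protein-coding gene of their chromosome, and their median log-LR was 104.7, against 4.83 for the 1037 regions between protein-coding genes. The highest of all, with a log-LR of 220.9, spanned 145341003 to 145341383 on chromosome 7, 17134 bp past Mrgprd, a receptor gene of pain-sensing neurons. The next had a log-LR of 206.7 on chromosome 18, 8686 bp past Gm45871. Tmem196 on chromosome 12 had a region with a log-LR of 113.1, Gm14496 on chromosome 2 one of 104.7 and Tcstv3 on chromosome 13 one of 49.7. The other regions past a last gene were near Csf2ra (log-LR 6.37) and Rfc3 (5.63), which are not high. In all, 5 of the 8 regions at or above 40 lay past the last gene. This position was picked out after the values were seen, and the input libraries were not analysed here.

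The remaining regions among the 10 highest lay between genes. A pair 505 bp apart near Ly6c2, a gene for a surface antigen of monocytes, had log-LR values of 153.2 and 40.8. One inside the pseudogene Gm20590, 35676 bp from Zfp825, had a log-LR of 55.3. Another stood 13572 bp from Stx18, which encodes a membrane fusion protein of the endoplasmic reticulum, with a log-LR of 35.6. The tenth lay near Gm39469 on chromosome 9 with 33.5, beside neighbours of 30.0 and 12.7.

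**Figure D3:**
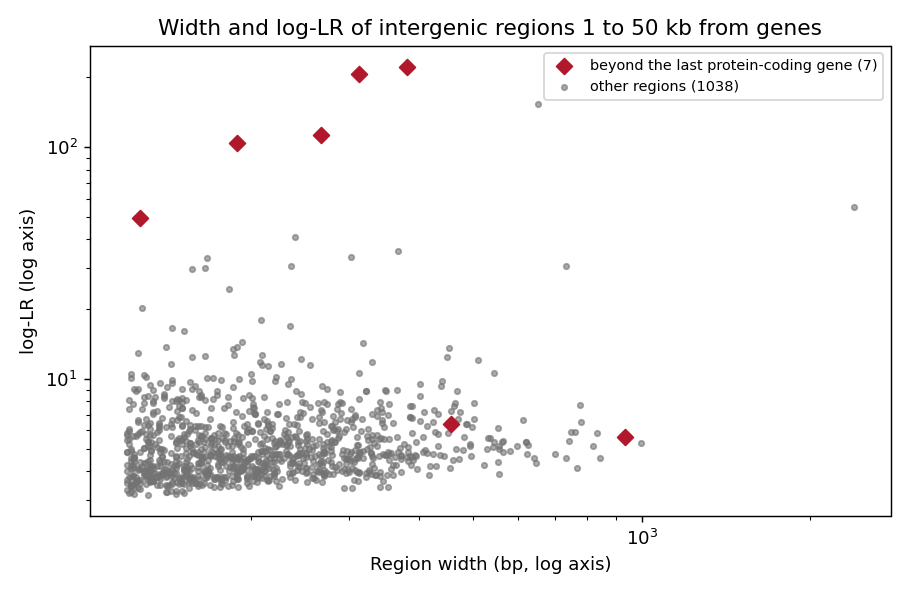
Width in bp (log axis) and the authors' log-LR (log axis) of the 1045 intergenic regions 1 to 50 kb from genes. The 7 regions beyond the last protein-coding gene of a chromosome (red diamonds) include 5 between 49.7 and 220.9, while the grey points centre on a median log-LR of 4.83.

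The list for ad libitum fed mice held 1 region, and it was intergenic by the same rule. It lay at chromosome 3, 58665865 to 58666096, with its centre 8969 bp from Siah2, a ubiquitin ligase gene. Its log-LR was 27.1, and 15 of the 1045 regions enriched in fasted mice had a value at least as high.

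Regions were spread over many genes. A gene was counted where it was the nearest protein-coding gene of at least 1 region, which held for 870 of the 17988 autosomal protein-coding genes with eligible DNA beside them (4.84%). Of these, 721 had 1 region, 124 had 2, 24 had 3 and 1 had 4. The share of genes counted was larger where more eligible DNA lay beside them, from 0.311% of genes with at most 5 kb of eligible DNA to 13.3% of those with over 50 kb. The density intervals of genes with and without a fasting-enriched region at an end overlapped. Regions numbered 2.16 per Mb beside genes with one (119 regions, 95% Poisson interval 1.79 to 2.58) and 2.22 per Mb beside genes without (926 regions, 2.08 to 2.36). Among the 870 genes, 97 (11.1%, 95% Wilson interval 9.23 to 13.4) had a region at an end, against 2045 of the 17118 other genes (11.9%, 11.5 to 12.4). A region at an end was any that reached within 1 kb of it, except those in runs of 5 or more rows. All counts of gene ends in lists and families below use this definition. Some intergenic regions centred just past 1 kb, such as that near Bicdl1, therefore counted as their own gene's end region. In all, 1037 of the 1045 regions lay wholly beyond the 1 kb limit.

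For a few genes with a region in the upstream flank, another region overlapped a window at the start. Of 378 genes with a region on their start side, 12 (3.17%) also had a fasting-enriched region overlapping a window of 300 bases around a start that the reference gives, and in 8 of these it covered the start base itself. Of all 14370 eligible genes with such a window, 521 had one (3.63%), so the share was near the background. Atp5g2, a gene for the ring subunit of mitochondrial ATP synthase, had an intergenic region 1200 bp away (275 bp, log-LR 4.49) and one at its start (log-LR 7.91). Zfp326, which encodes a zinc finger protein, had a pair at 24639 bp (log-LR 5.49) and 25453 bp (log-LR 9.03), and one of 4.81 at its start. Lrrc8b, a subunit gene of the volume-regulated anion channel, had 3, at 36525 bp (6.15), 47826 bp (4.42) and 48461 bp (10.2), and one of 5.19 over the first 52 bases of its start window, short of the start base. For Lrrc8b, that start base and the region near it lie inside the gene, past the 5′ boundary from which the distances were counted. Windows of only 3 of the 12 genes are shown, as examples that need not be typical of the rest. These start windows are shown because a region overlapped them, with the bases covered by the region in capitals. They are RefSeq's, build GRCm38.p6, on the gene's strand, at chr15:102670998-102671297 (minus), chr5:105876318-105876617 (plus) and chr5:105415525-105415824 (plus).
Atp5g2: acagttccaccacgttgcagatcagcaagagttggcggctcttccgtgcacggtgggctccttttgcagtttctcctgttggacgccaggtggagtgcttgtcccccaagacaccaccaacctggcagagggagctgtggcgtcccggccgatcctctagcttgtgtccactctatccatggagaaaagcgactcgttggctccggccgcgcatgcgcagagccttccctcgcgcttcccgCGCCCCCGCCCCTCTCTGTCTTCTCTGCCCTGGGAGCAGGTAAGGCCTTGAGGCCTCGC
Zfp326: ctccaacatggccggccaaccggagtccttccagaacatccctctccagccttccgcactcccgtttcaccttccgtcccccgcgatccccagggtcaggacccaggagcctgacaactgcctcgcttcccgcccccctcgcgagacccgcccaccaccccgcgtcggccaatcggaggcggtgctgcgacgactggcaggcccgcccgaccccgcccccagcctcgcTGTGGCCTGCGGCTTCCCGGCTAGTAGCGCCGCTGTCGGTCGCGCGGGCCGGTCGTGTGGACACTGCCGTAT
Lrrc8b: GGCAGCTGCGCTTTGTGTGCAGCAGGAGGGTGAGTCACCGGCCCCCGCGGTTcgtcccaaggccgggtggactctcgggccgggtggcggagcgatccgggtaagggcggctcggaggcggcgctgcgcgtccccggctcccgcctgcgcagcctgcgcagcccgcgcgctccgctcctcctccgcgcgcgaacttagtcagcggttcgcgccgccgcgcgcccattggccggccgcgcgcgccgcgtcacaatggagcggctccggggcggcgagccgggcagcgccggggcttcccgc
On either strand, GGGCGG occurred 1 time in the window of Atp5g2, 4 times in that of Zfp326 and 2 times in that of Lrrc8b, and 35.7% of all 32851 start windows hold it. CCAAT occurred 1 time in the windows of Zfp326 and Lrrc8b (37.4% of all windows). TGACTCA occurred 1 time in that of Lrrc8b (5.20% of all windows). The covered bases held this TGACTCA and the GGGCGG of Atp5g2, and no other match. TGACGTCA, CCGGAAGT and CACGTG were in none (0) of the 3 windows, and no match overlapped another. The GC content was 63.0%, 71.3% and 78.0% in the order shown, beside a median of 52.7% over all start windows.

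Genes of cortical identity, autophagy and fat oxidation were among those beside intergenic regions, in numbers too small to set the lists apart from all genes. Cortical neuron transcription factors were the nearest gene in 4 of 35 (11.4%, 95% Wilson interval 4.54 to 26.0), beside 4.84% of all genes. Their flanks held 2.53 regions per Mb (95% Poisson interval 0.823 to 5.91), beside 2.21 for all genes. Mef2d, an activity-dependent factor, had a region 3055 bp before its start (201 bp, log-LR 9.77) and also a region at an end. Nfia, which drives glial and neuronal differentiation, had one 34730 bp past its end (log-LR 9.07), inside the pseudogene Gm12691. Id4, an inhibitor of helix-loop-helix factors, had one at 31376 bp (log-LR 4.74).

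Among insulin, mTOR and autophagy genes 2 of 27 were nearest to a region (7.41%, Wilson interval 2.06 to 23.4), and between them they had 5 regions, or 6.49 per Mb (Poisson interval 2.11 to 15.1). Atg7, the activating enzyme of autophagosome conjugation, had 3, all upstream, at 18249 bp (log-LR 3.45), 31022 bp (6.93) and 40373 bp (4.85) from its start. Map1lc3b, the gene for the autophagosome membrane protein LC3B, had a pair upstream at 4497 bp (log-LR 8.12) and 5121 bp (5.06). Neither gene had a region at an end. Fatty acid oxidation genes were nearest in 2 of 20 (10%, 2.79 to 30.1). Decr1, a reductase that handles unsaturated fatty acids in mitochondria, had a region at 1513 bp (log-LR 5.32), and Eci2, an enoyl-CoA isomerase gene, one at 11656 bp upstream (5.27). Circadian clock genes also had 2 of 20 (10%). Bhlhe41, a clock repressor gene, had a region 30658 bp upstream (log-LR 6.05), and Hlf, a clock output factor, had a pair at 25182 bp (5.74) and 25510 bp (3.69) past its end.

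Immediate early genes were nearest in 2 of 23 (8.70%, 2.42 to 26.8). Fosl2, an AP-1 subunit gene, had a region 2800 bp upstream (log-LR 3.65) and another at an end, and Klf4 one at 12125 bp past its end (4.46). Synaptic genes had 2 of 35 (5.71%, 1.58 to 18.6). Gria1, which encodes an AMPA-type glutamate receptor subunit, had a region at 15553 bp (log-LR 8.46), and Dlg2, a postsynaptic scaffold gene, one at 37983 bp past its end (6.93). Glucocorticoid and FOXO responsive genes had 1 of 21, Zbtb16 (2533 bp, log-LR 8.64), and oxidative phosphorylation genes 1 of 43, the complex I gene Ndufv1 (10111 bp upstream, 3.93). Histone acylation writers and erasers (0 of 21, upper Wilson bound 15.5%), ketone body genes (0 of 13, 22.8%), heat shock and protein folding genes (0 of 22, 14.9%) and genes of BDNF signalling and visual cortex plasticity (0 of 20, 16.1%) had none. All 12 intervals held the 4.84% of all genes. In these 4 lists, gene ends carried a region in 8 of 21 histone acylation genes, 2 of 13 ketone body genes, 10 of 22 protein folding genes and 2 of 20 BDNF and plasticity genes, beside 11.9% of all genes. In the other lists, ends carried one in 15 of 27 insulin, mTOR and autophagy, 10 of 23 immediate early and 13 of 43 oxidative phosphorylation genes. The counts were 6 of 21 glucocorticoid and FOXO, 9 of 35 synaptic and 6 of 35 cortical transcription factor genes. Fatty acid oxidation genes had 3 of 20 and circadian clock genes 2 of 20.

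Markers of cell types had few regions beside them. Excitatory neuron markers had 1 of 11. Inhibitory neuron (0 of 12), astrocyte (0 of 8), oligodendrocyte (0 of 11), microglia (0 of 10) and endothelial and mural markers (0 of 10) had none, nor did those of liver (0 of 10), blood (0 of 9) and skeletal muscle (0 of 10), tissues outside the dissection. For the 8 lists without a region the upper Wilson bounds ran from 24.2% to 32.4%, and the excitatory list had an interval of 1.62% to 37.7%, all of which hold the 4.84% of all genes.

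**Figure D4:**
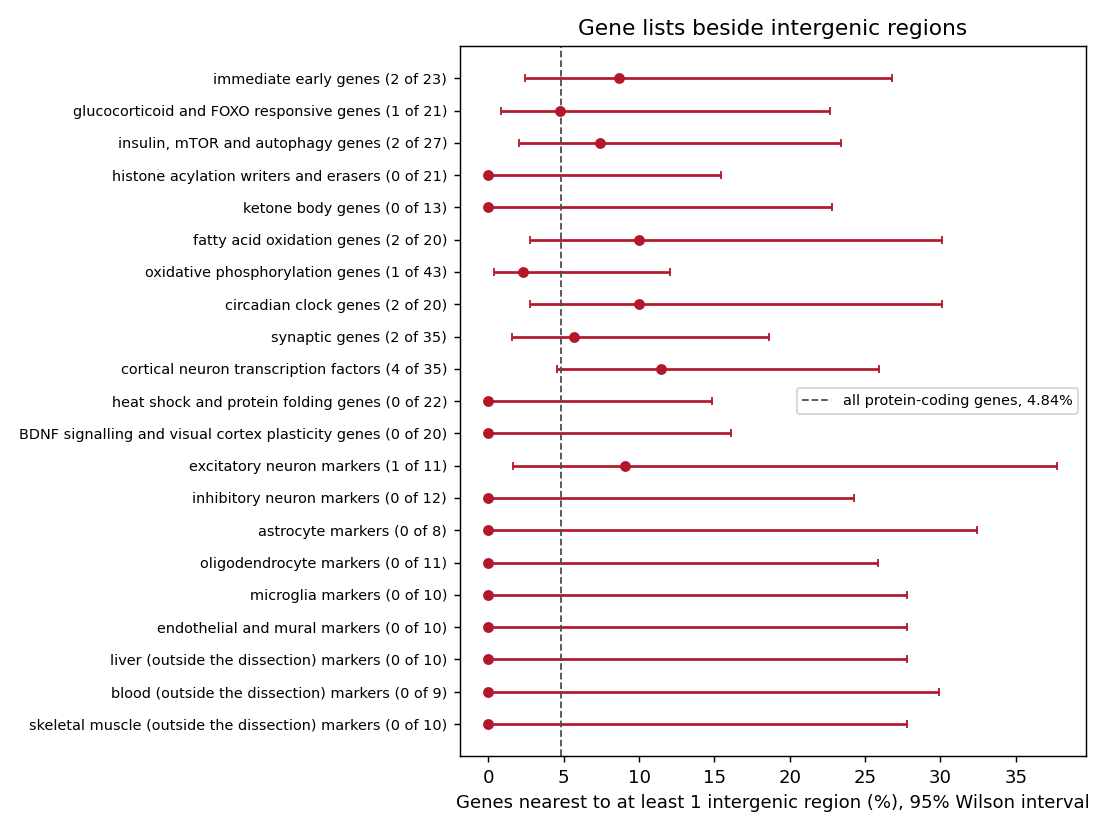
Percent of each list's genes that were the nearest protein-coding gene of at least 1 intergenic region, with 95% Wilson intervals, and the counts in brackets; the dashed line is the 4.84% of all genes with eligible DNA. The highest pathway share, 11.4% for cortical neuron transcription factors, has an interval that starts at 4.54%.

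Flanks of Vmn1r, Mup and Olfr genes were denser in regions than the average, and few or none of their ends carried one outside runs. These families were chosen after their values were seen. Members of multigene families can have close copies between which reads can be split. How alike the copies are was not measured here, so the values of these families are uncertain. Vomeronasal type 1 receptor genes (Vmn1r), chemoreceptor genes of the vomeronasal organ, were nearest in 41 of 231 (17.7%, 95% Wilson interval 13.4 to 23.2), with 56 regions or 6.76 per Mb (95% Poisson interval 5.10 to 8.77). Major urinary protein genes (Mup) were nearest in 8 of 21, with 8.10 regions per Mb (4.04 to 14.5). Olfactory receptor genes (Olfr) had 73 regions, 3.11 per Mb (2.44 to 3.91). The small Psg and Obox families were also above the average, with none (0) of their genes carrying a region at an end. Psg genes had 4 regions, 8.73 per Mb (2.38 to 22.4), and Obox genes 5, 10.2 per Mb (3.30 to 23.7). Type 2 vomeronasal receptors (Vmn2r) had 2.82 per Mb (1.70 to 4.40), an interval that holds the 2.21 of all genes. Unnamed genes with Gm or LOC symbols had 3.64 per Mb (2.99 to 4.38). Ends carried a region in 0 of 231 Vmn1r, 0 of 21 Mup, 0 of 119 Vmn2r, 5 of 1091 Olfr and 39 of 857 Gm or LOC genes, beside 11.9% of all genes. Regions in runs of 5 or more rows were counted neither at ends nor in flanks, so these counts hold outside runs only. Zinc finger genes (Zfp) had 2.51 regions per Mb (1.57 to 3.80) and a region at an end in 54 of 358, and solute carriers (Slc) 1.91 per Mb (1.09 to 3.10) and 44 of 337.

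**Figure D5:**
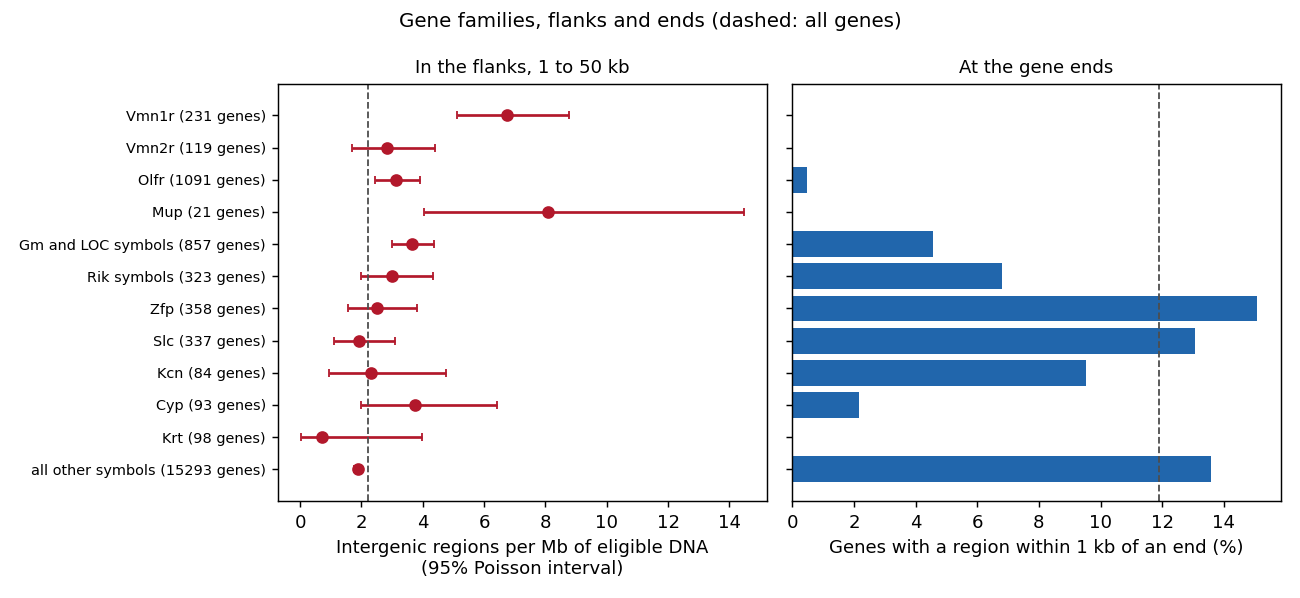
Left, intergenic regions per Mb of eligible DNA beside genes of each family, with 95% Poisson intervals; right, percent of the family's genes with a fasting-enriched region within 1 kb of an end; dashed lines are the values of all genes. Vmn1r genes have 6.76 regions per Mb in their flanks and none (0) at their ends, while Zfp genes are near the average in both panels.

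Chromosome 7, rich in Vmn1r genes, was the densest. The density ran from 1.44 regions per Mb on chromosome 19 to 3.48 on chromosome 7 (95% Poisson interval 2.93 to 4.10), where 42 of the 144 regions were nearest to Vmn1r genes and 12 to Olfr genes. Without the receptor, Mup, Psg and Obox families and unnamed genes, chromosome 7 held 2.19 per Mb (1.65 to 2.85). That lies inside the range of 1.27 to 2.48 over the 19 autosomes in that setting. Over all autosomes the same choice left 735 regions at 1.88 per Mb (1.74 to 2.02).

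Among the genes nearest to the most regions, Tcp10c had 4, with log-LR values of 3.95, 5.34, 7.94 and 5.19 between 6972 and 37417 bp. A further 24 genes had 3, of which the 9 with the highest log-LR are named. Vmn1r77 had 3, of which the highest reached 13.6, and so did Ugt2b37, a glucuronosyltransferase gene, with a highest value of 11.5. Mrpl1, a mitochondrial ribosomal protein gene, had 3 in a tight group between 26168 and 26859 bp (7.05, 4.95 and 4.11). Atg7, Lrrc8b, Gm39469, Gm5373, Gm32719 and Gm8765 were the others.

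The values at the limits of the rule were as follows. Just inside 1 kb stood a region near Irx2, 1012 bp from a lncRNA gene end (log-LR 5.89), and one 1048 bp from Bicdl1 (4.85), and just outside stood one 999 bp from a lncRNA gene end (5.41), which at 116546 bp from a protein-coding gene end also missed the 50 kb limit, and one 988 bp from Ankhd1 (4.36). At the far limit, regions 49658 bp from Ror2 (log-LR 11.9) and 49321 bp from Ndst3 (8.09) were kept, and those 50021 bp from Fgf18 (7.10) and 50274 bp from Sdc2 (7.29) were not. Groups of 4 rows, kept, had a median log-LR of 5.22 (26 regions), and runs of 5 rows, left out, 5.25 (16 regions).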

How the data were processed

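The deposited data are a fasted and an ad libitum list of regions, each region with a score that per the file headers is a log-LR. The submitters' processing notes name mm10, MACS2 and Bowtie2 but no version or role of a tool. No source used here states the log base, the cutoff, the depth scaling or whether libraries were pooled, and a difference in depth or yield between feeding states would move the number of regions.

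Starts were read as counted from 0, which makes the smallest width 120 bp, and printed coordinates count from 1. The RefSeq table (GRCm38.p6) used for genes holds 21900 protein-coding and 12731 lncRNA genes, and strands were read from the table of gene starts, which matched the nearest gene of 851 of the 1045 regions. Each region's centre was placed against gene ends. Eligible DNA was measured on a grid of 10 bp, and the DNA of left-out runs was kept in it. Motifs were searched by their letters on both strands. Base composition of the regions was not analysed here.

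The members, the 12 pathway lists and 9 marker lists were chosen with earlier results of these data known. Genes were named by rule (nearest to the 10 regions of highest log-LR, the 10 widest, the 10 genes with the most regions, up to 4 genes of each list, and regions at the limits or over small RNA genes and pseudogenes). One gene that the rule names is not reported here. The 1 kb window around small RNA genes, through which Mir124a-3 and Mir760 were named, was not part of that rule. The genes with a region at their start, the families and the chromosome ends were chosen after their values were seen. Intervals are 95% Wilson for shares and exact Poisson for densities. The placement step was tested on simulated data, and all 200 planted regions were placed in the right class. The software was matplotlib 3.10.9, scipy 1.17.1, pandas 2.3.3, numpy 2.4.6 and Python 3.11.15. Other limits, log-LR minimums and run lengths were tried as alternatives.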

Additional observations from a re-analysis of the deposited data

Results flagged for a closer look

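Both results here concern regions outside those described above, and no explanation was tested. On chromosome X, which the rule leaves out, 54 fasting-enriched regions met all its other parts, or 1.26 per Mb of eligible DNA (95% Poisson interval 0.946 to 1.64), against 2.21 per Mb on the autosomes. Their median log-LR was 5.02, and the highest, 11.9, lay 24341 bp from Btbd35f7. The 3 highest were nearest to Btbd35f7, Btbd35f25 and Btbd35f15, members of a multigene family whose copies can split reads. In runs of 5 or more rows, also left out, 179 regions had the same intergenic location, in 24 runs. Their median log-LR was 5.51 and their maximum 28.4, below the highest of 220.9 outside runs.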

How the results depend on the processing

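Of 128 values under other settings, 96 stayed within the counting interval of the reported value (or within 1.5 times of it, for counts) and 32 moved. Raising the lower limit to 3 kb gave a median distance of 18223 bp and 25.1% of regions within 10 kb. An upper limit of 20 kb gave 614 regions, 534 genes, a median distance of 9669.5 bp and 52.4% within 10 kb, and one of 100 kb gave 24442 bp and 22.8%. With no runs left out, 33.6% had a listed region within 5 kb and the density was 2.59 per Mb. With runs of 3 or more rows left out, these were 17.7% and 1.998. A log-LR of at least 5 left 480 regions and 440 genes, with a median log-LR of 6.33, a width of 214 bp, 18.96% with a neighbour and 1.01 per Mb. A log-LR of at least 10 left 54 regions and 51 genes, with 13.2, 208.5 bp, 14704 bp, 37.0% within 10 kb, 20.4% with a neighbour and 0.114 per Mb. Merging rows within 1 kb gave 207.5 bp, 9.77% with a neighbour and 2.06 per Mb. Counting every protein-coding gene with an end within 50 kb gave 1625 genes. Leaving out the receptor, Mup, Psg and Obox families and unnamed genes gave a median distance of 18555 bp and 1.88 per Mb. That choice was made after seeing the data. Distances move with the distance limits, and counts and the median log-LR with the log-LR minimum, by construction. The share with a neighbour and the density also move by construction where runs are restored or dropped or rows are merged. The same holds for the density under a log-LR minimum. For the other shifts the cause was not tested. Sequence windows of the regions were not run. No paired analysis was possible because only 1 value per region was used for all libraries together, and leaving out replicates was not run for the same reason.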

Other observations

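Pseudogenes lay under 56 of the 1045 regions (5.36%), and 52 had their centre in one (4.98%), beside 2.72% of the eligible DNA. Their median log-LR was 4.90. After Gm20590 the highest were at Gm10060 (12.4), a ribosomal protein pseudogene Rps15-ps2 (9.36), the transcribed pseudogene Gm7271 (9.21), Gm12691 (9.07) and Gm13141 (9.02). The 7SL RNA gene Rn7s2 on chromosome 12 lay under a region with a log-LR of 4.47, the transcript Gm3164, annotated as a miscellaneous RNA, under one of 3.50, and the T cell receptor beta locus Tcrb under 3, of 3.30, 6.48 and 5.90. In all, 981 regions overlapped no annotated gene of any kind.

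The widest regions had ordinary log-LR values apart from the 2398 bp at Gm20590. One of 999 bp within the immunoglobulin kappa locus Igk had a log-LR of 5.27, one of 933 bp near Rfc3 5.63, one of 841 bp near Frem1, a basement membrane protein gene, 4.57, and one of 831 bp near Cyp8b1, a bile acid hydroxylase gene, 5.86. Those near 1700012A03Rik (818 bp, 5.14), Pudp (778 bp, 6.54), Fndc3b (776 bp, 7.73), Reg2 (766 bp, 4.14) and Acadsb, a short branched chain acyl-CoA dehydrogenase gene (760 bp, 5.92), completed the 10 widest.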
